A study of Mus musculus with 6 samples.

Results

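The Cdkn2a locus and the cell cycle inhibitors, kinases and cyclin around it were examined in 6 mouse primary cancer cell lines by bulk RNA sequencing. The set holds 10 genes of the 55401 in the deposited tables. It comprises Cdkn2a, its chromosomal neighbours Cdkn2b and Mtap, the inhibitors Cdkn2c, Cdkn2d, Cdkn1a and Cdkn1b, the kinases Cdk4 and Cdk6, and the cyclin Ccnd1. The genes were chosen by the measured level of Cdkn2a, which was nearly absent in 2 of the lines, WT replicates 4 and 6, so that level is given as a description, with no test. All 10 genes passed the filter on low values, and 9 were tested.

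Of the 6 lines, 3 were labelled as derived from Rag1KO mice (replicates 1, 3 and 7) and 3 as derived from WT mice (replicates 2, 4 and 6), all of strain C57BL/6. Rag1 is needed to cut and join antigen receptor genes, so hosts without it lack mature lymphocytes that carry such receptors. The comparison asks how tumour cells grown in immunocompromised hosts differed from cells grown in immunocompetent ones. Primary tumours had been minced, digested with collagenase, dispase and trypsin, and the cells were cultured in DMEM with serum before RNA was collected. The labels give neither the tumour type nor the hosts' age and sex, and each line is a single culture with a single library. They do not say that the lines came from separate animals, and p-values then cover no more than the spread among these 6 samples.

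Cyclin D with CDK4 or CDK6 phosphorylates the retinoblastoma protein and so releases E2F factors that switch on the genes of DNA replication. The INK4 inhibitors (p16 from Cdkn2a, p15 from Cdkn2b, p18 from Cdkn2c and p19Ink4d from Cdkn2d) bind CDK4 and CDK6, while the CIP/KIP inhibitors (p21 from Cdkn1a and p27 from Cdkn1b) act mainly on CDK2 complexes. Cdkn2a also encodes Arf from a separate upstream start. Arf restrains Mdm2, the ligase that degrades p53, and p53 in turn switches on Cdkn1a. In cultured mouse cells the locus is known for its induction with passage, and for its frequent loss in lines that escape senescence.

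Values are reads per gene divided by a size factor per library, called normalized counts below. Libraries held 55409583 to 62998051 reads, and 3 reads, the most that a count of 0 was taken to allow, equal 2.64 to 3.48 normalized counts depending on the library. Intervals on read numbers cover counting error only. Rag1 itself had 39.3, 126 and 177 normalized counts in the Rag1KO lines and 0 reads in each of the WT lines. The tables count whole genes, so they leave unknown whether those Rag1 reads lie outside the deleted part; groups are named by their labels and every direction below rests on these. The Y-linked gene Eif2s3y had 1438 to 2944 normalized counts in the Rag1KO lines and 0 in the WT lines. The Y-linked Ddx3y had 2156 to 5332 in the Rag1KO lines, against 2.01, 0.966 and 4345 in WT replicates 2, 4 and 6, and Kdm5d and Uty, also Y-linked, were likewise high in WT replicate 6, at 1994 and 1196, and at 0 in the other WT lines. Xist had 1.94 to 15.3 in the Rag1KO lines, against 59775, 32733 and 5.28 in WT replicates 2, 4 and 6. WT replicates 2 and 4 therefore stood apart from the Rag1KO lines in Xist and in all 4 Y-linked genes, and for these lines sex-linked expression and host genotype cannot be told apart. WT replicate 6 stood apart from the other lines in some fibroblast markers. Col1a1, the main fibrillar collagen chain, was at 206 normalized counts there and at 478322 to 1051710.2 in the others. Thy1, a fibroblast surface protein, was at 0.880 against 29802 to 81487. Of 11 fibroblast and mesenchymal markers read below, WT replicate 6 was the lowest line for 5, and other lines were lowest for the rest. Differences are therefore also given without WT replicate 6.

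In the comparison of Rag1KO with WT lines, none of the 9 tested genes passed limma's threshold of an adjusted p of 0.05, where 0.0062% of all 16137 tested genes did. That percentage is 1 gene, Eif2s3y. No gene of the 9 reached an unadjusted p of 0.05 in limma, edgeR or DESeq2 either, and edgeR and DESeq2 called none of them. Over all genes edgeR called 0 at the adjusted threshold, with 717 at an unadjusted p under 0.05. DESeq2 called 65, which is 0.41% of those with an adjusted p, 0.284% being higher and 0.126% lower in Rag1KO lines. For none of the 10 genes were the 3 Rag1KO lines all above or all below the 3 WT lines, a separation that 12.1% of all tested genes showed, 5.6% with Rag1KO higher and 6.49% with Rag1KO lower. Cdkn2a, Cdkn2b and Cdkn1a were each set apart by particular lines, and the values of every gene follow.

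**Figure D1:**
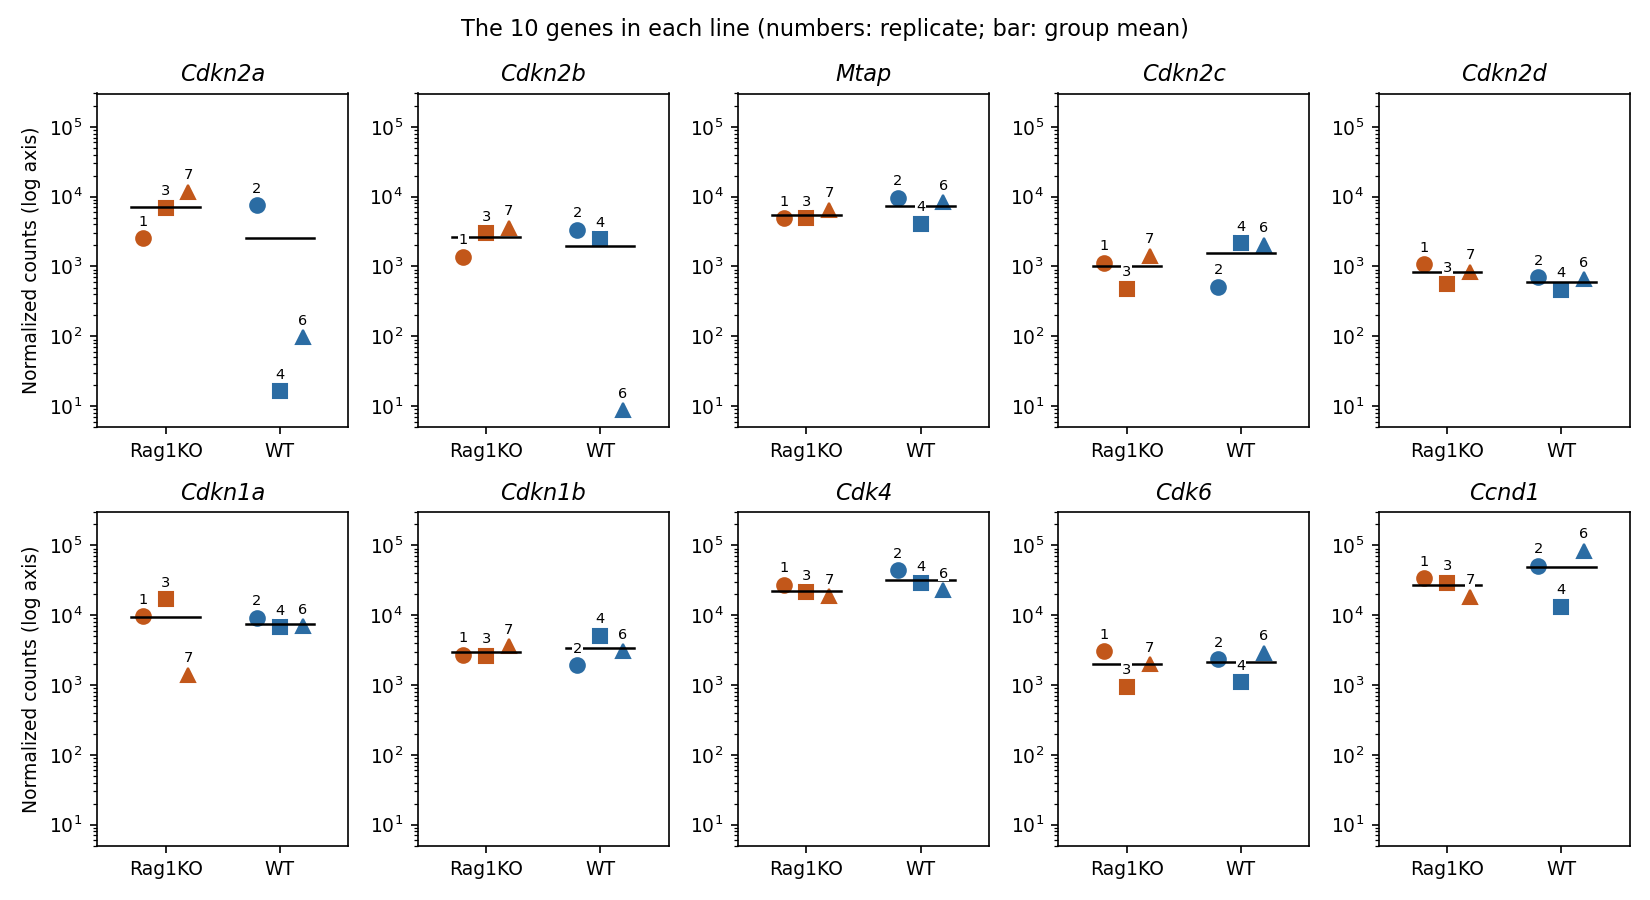
Normalized counts (log axis) of the 10 genes in the Rag1KO and WT lines, 1 point per line with its replicate number, and a bar at each group mean (n = 3 each). Cdkn2a lies at 16.4 and 97.7 in WT replicates 4 and 6 and at 2557 or more in the other lines, Cdkn2b lies at 8.80 in WT replicate 6, and Cdkn1a is lowest in Rag1KO replicate 7.

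Cdkn2a (ENSMUSG00000044303.6, chr4:89274471-89294653, minus strand, GRCm38) spanned the widest range of the 10 genes. It had 2557, 6883 and 11716 normalized counts in Rag1KO replicates 1, 3 and 7, against 7522, 16.4 and 97.7 in WT replicates 2, 4 and 6. Rag1KO replicate 7 was highest, WT replicate 2 lay between Rag1KO replicates 7 and 3, and WT replicates 4 and 6 were far below the rest. The values of WT replicates 4 and 6 rest on 17 reads (exact Poisson 95% interval 9.90 to 27.2) and 111 reads (91.3 to 134), against 2668 to 12094 reads in the other 4 lines. With 1 library per line the spread within a line was not measured. The lowest of the other lines, Rag1KO replicate 1, was 156-fold above WT replicate 4 and 26.2-fold above WT replicate 6. The group means were 7052 ± 4582 in Rag1KO lines and 2545 ± 4310 in WT lines (SD, n = 3 each). On the scale of log2(normalized counts + 1), Rag1KO minus WT was 4.65, and it was 4.03 without WT replicate 6, 2.78 without WT replicate 4 and 7.16 without WT replicate 2. It was 1.48 in edgeR and in DESeq2, which compare mean reads. In bulk RNA, fewer cells that express a gene and less RNA per cell cannot be told apart. Cdkn2a shared none of its 50-base words with the transcripts of another annotated gene, and the same held for Cdkn2b, Mtap, Cdkn2c, Cdkn2d and Cdkn1b.

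The Cdkn2a counts are of the whole gene, so p16 and Arf transcripts cannot be separated. The annotation holds 1 transcript from the upstream start, which gives Arf, and 1 from the downstream start, which gives p16. Their starts lie 12461 bases apart, and they share 575 of 1172 exonic bases (49.1%), which the p16 and Arf proteins read in different frames. With 17 reads over the whole gene, neither transcript was abundant in WT replicate 4. The start regions of Cdkn2a and Cdkn2b are shown because these are the genes that single lines lacked; RefSeq gives them on GRCm38.p6, each with 300 bases in the direction of transcription, 250 of them before the start. Capitals mark GC boxes (GGGCGG or CCGCCC, on either strand), the short motif bound by Sp1-type factors.
Cdkn2a upstream (Arf) start, chr4:89294570-89294869, minus strand: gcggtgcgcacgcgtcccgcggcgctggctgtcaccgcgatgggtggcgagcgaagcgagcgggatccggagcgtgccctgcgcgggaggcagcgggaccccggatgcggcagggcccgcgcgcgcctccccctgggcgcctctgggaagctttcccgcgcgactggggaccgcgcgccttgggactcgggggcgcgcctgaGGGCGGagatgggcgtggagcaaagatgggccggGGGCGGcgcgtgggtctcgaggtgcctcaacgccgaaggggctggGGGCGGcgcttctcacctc
Cdkn2a downstream (p16) start, chr4:89282143-89282442, minus strand: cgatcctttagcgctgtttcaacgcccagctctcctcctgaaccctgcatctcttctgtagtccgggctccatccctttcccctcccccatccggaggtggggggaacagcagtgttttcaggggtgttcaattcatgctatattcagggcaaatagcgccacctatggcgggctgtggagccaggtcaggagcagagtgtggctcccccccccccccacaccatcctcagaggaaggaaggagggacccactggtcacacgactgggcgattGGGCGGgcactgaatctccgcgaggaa
Cdkn2b start, chr4:89310983-89311282, minus strand: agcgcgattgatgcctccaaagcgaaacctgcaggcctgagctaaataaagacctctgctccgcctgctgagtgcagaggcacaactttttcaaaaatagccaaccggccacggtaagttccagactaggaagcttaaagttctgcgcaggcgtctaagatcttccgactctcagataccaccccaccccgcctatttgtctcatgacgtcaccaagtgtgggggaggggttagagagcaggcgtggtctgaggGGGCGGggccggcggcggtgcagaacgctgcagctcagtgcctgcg
The upstream Cdkn2a window held 3 GC boxes, the downstream window 1 and the Cdkn2b window 1, and 35.7% of 32851 RefSeq promoter windows of this length held at least 1. CpG dinucleotides, the sites of DNA methylation, numbered 45 in the upstream Cdkn2a window, 12 in the downstream window and 18 in that of Cdkn2b, against a median of 7 over all windows. At least as many as in the upstream window were found in 1.93% of the windows, as in the downstream window in 39.6% and as in the Cdkn2b window in 29.7%. These are properties of the reference sequence, and neither methylation nor DNA copy number was measured here.

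Cdkn2b (ENSMUSG00000073802.5, chr4:89306299-89311039, minus strand) lies 11645 bases from Cdkn2a. It had 1368, 2989 and 3598 normalized counts in Rag1KO replicates 1, 3 and 7, against 3362, 2444 and 8.80 in WT replicates 2, 4 and 6. Only WT replicate 6 was low, with 10 reads (exact Poisson 95% interval 4.80 to 18.4), and the lowest of the other 5 lines was 156-fold above it. WT replicate 4, which had 17 reads of Cdkn2a, had 2531 of Cdkn2b, so the adjacent genes were low together in WT replicate 6 and not in WT replicate 4. The means were 2652 ± 1152 in Rag1KO lines and 1938 ± 1733 in WT lines (SD, n = 3 each). Rag1KO minus WT was 2.51 on the log2 scale (SE 2.27, 95% interval −3.06 to 8.07, limma adjusted p = 0.850). It was 0.46 in edgeR and in DESeq2. Without WT replicate 6 it was −0.23, so the sign of the difference rested on that line.

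Mtap (ENSMUSG00000062937.7, chr4:89137122-89181081, plus strand), which encodes the methylthioadenosine phosphorylase of methionine salvage and is often lost with CDKN2A in human tumours, lies on the other side of Cdkn2a. Its normalized counts were 4933, 4881 and 6510.1 in Rag1KO replicates 1, 3 and 7, against 9700.1, 4083 and 8313 in WT replicates 2, 4 and 6. No line lacked Mtap: WT replicate 6 was among the highest and WT replicate 4 the lowest, at a level close to Rag1KO replicates 1 and 3. The means were 5442 ± 926 in Rag1KO lines and 7365 ± 2926 in WT lines (SD, n = 3 each), and Rag1KO minus WT was −0.36 (SE 0.36, 95% interval −1.24 to 0.52, limma adjusted p = 0.854). Without WT replicate 6 it was −0.22.

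The neighbourhood was followed for 2.5 Mb on either side of Cdkn2a, where the annotation places 95 genes, 45 of them protein-coding. Of these 45, 28 had at least 3 reads in a library and 23 were tested. Beside Cdkn2a, 0 of the other 22 passed the threshold in limma, edgeR or DESeq2, and 0 had an unadjusted p under 0.05 in limma. In DESeq2 Slc24a2 had an unadjusted p of 0.0432 and an adjusted p of 0.731. Groups did not overlap for 2 of the 22, Hacd4 and the gene model Gm13283, where 12.1% of all tested genes were so separated. The Ifna genes, Ifnb1 and Ifne of the region were silent or nearly so, whereas Ifnz had 14.1 to 43.3 normalized counts over the lines. In the window 12 protein-coding genes had no read in any library. The gene models related to Ifnz, of which the window holds 13 named with Gm numbers, form a family of closely similar copies among which reads could be split, so their low counts are uncertain.

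Hacd4, a dehydratase of very-long-chain fatty acid synthesis whose start lies 856 kb from that of Cdkn2a on the Mtap side, was also nearly absent from WT replicate 6. It had 6639, 3192 and 5305 normalized counts in Rag1KO replicates 1, 3 and 7, against 2639, 3021 and 13.2 in WT replicates 2, 4 and 6. WT replicate 6 had 15 reads of it (exact Poisson 95% interval 8.40 to 24.7), and the lowest of the other lines was 200-fold above. Rag1KO lines lay above WT lines without overlap, as did 5.6% of all tested genes, but the difference of 3.32 did not pass the threshold (SE 2.11, limma adjusted p = 0.850) and was 0.77 without WT replicate 6.

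Further abundant genes of the window were present in every line. Klhl9, a substrate adaptor of a cullin ubiquitin ligase, lies between Hacd4 and Mtap and had 2923, 4041 and 4838 normalized counts in Rag1KO replicates 1, 3 and 7, against 3282, 4546 and 2679 in WT replicates 2, 4 and 6. Mllt3, a chromatin reader linked to transcription elongation, had 1581, 1060.2 and 1146 in Rag1KO lines, against 1249.8, 1417 and 1678 in WT lines. Focad had 1057, 1140.1 and 1794 in Rag1KO lines, against 1036, 1423 and 1557 in WT lines. Rps6, at the far end of the window on the same side, was the most abundant. It had 24341, 27176 and 42138 in Rag1KO lines, against 38049, 46556 and 66942 in WT lines, highest in WT replicate 6. Hacd4, Cdkn2a and Cdkn2b were thus low in WT replicate 6, with Klhl9 and Mtap in between at 2679 and 8313 normalized counts. Slc24a2 and Acer2, farther out on the same side, were low everywhere. Slc24a2 had 93.9, 17.4 and 9.69 in Rag1KO lines, against 10.1, 4.83 and 0 in WT lines, and Acer2 had 1.92, 37.1 and 42.6 in Rag1KO lines, against 22.2, 6.76 and 3.52 in WT lines. WT replicate 6 was the lowest line for 9 of the 23 tested protein-coding genes of the window, Rag1KO replicate 1 for 7 and WT replicate 4 for 5. Without Ifnz and the related gene models, whose counts are uncertain, the count was 4 of 10 for WT replicate 6, 2 for Rag1KO replicate 1 and 2 for WT replicate 4. How often each line was lowest or highest over all tested genes was not determined. Such counts, here and in the gene lists below, are therefore descriptions only.

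Other genes around Cdkn2a ran the other way in WT replicate 6. The long noncoding RNA gene Gm12606 (chr4:89235699-89273403, minus strand), named here after its values were seen, starts 1067 bases beyond the 3′ end of Cdkn2a, on the same strand. It had 0, 0 and 1 reads in Rag1KO replicates 1, 3 and 7, against 141, 0 and 5975 reads in WT replicates 2, 4 and 6. Dmrta1, a transcription factor gene beyond Cdkn2b, had 0, 0 and 10 reads in Rag1KO lines, against 3, 0 and 871 reads in WT lines. Neither gene passed the filter on low counts, so neither was tested. In WT replicate 6, Cdkn2a and Cdkn2b were therefore at 111 and 10 reads between genes with 5975 and 871 reads, whereas in WT replicate 4 both of those flanking genes had 0 reads. Elavl2, which encodes a neuronal RNA-binding protein, lies at the far end of the window and had 9, 3 and 244 reads in Rag1KO lines, against 12, 2 and 0 in WT lines.

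**Figure D2:**
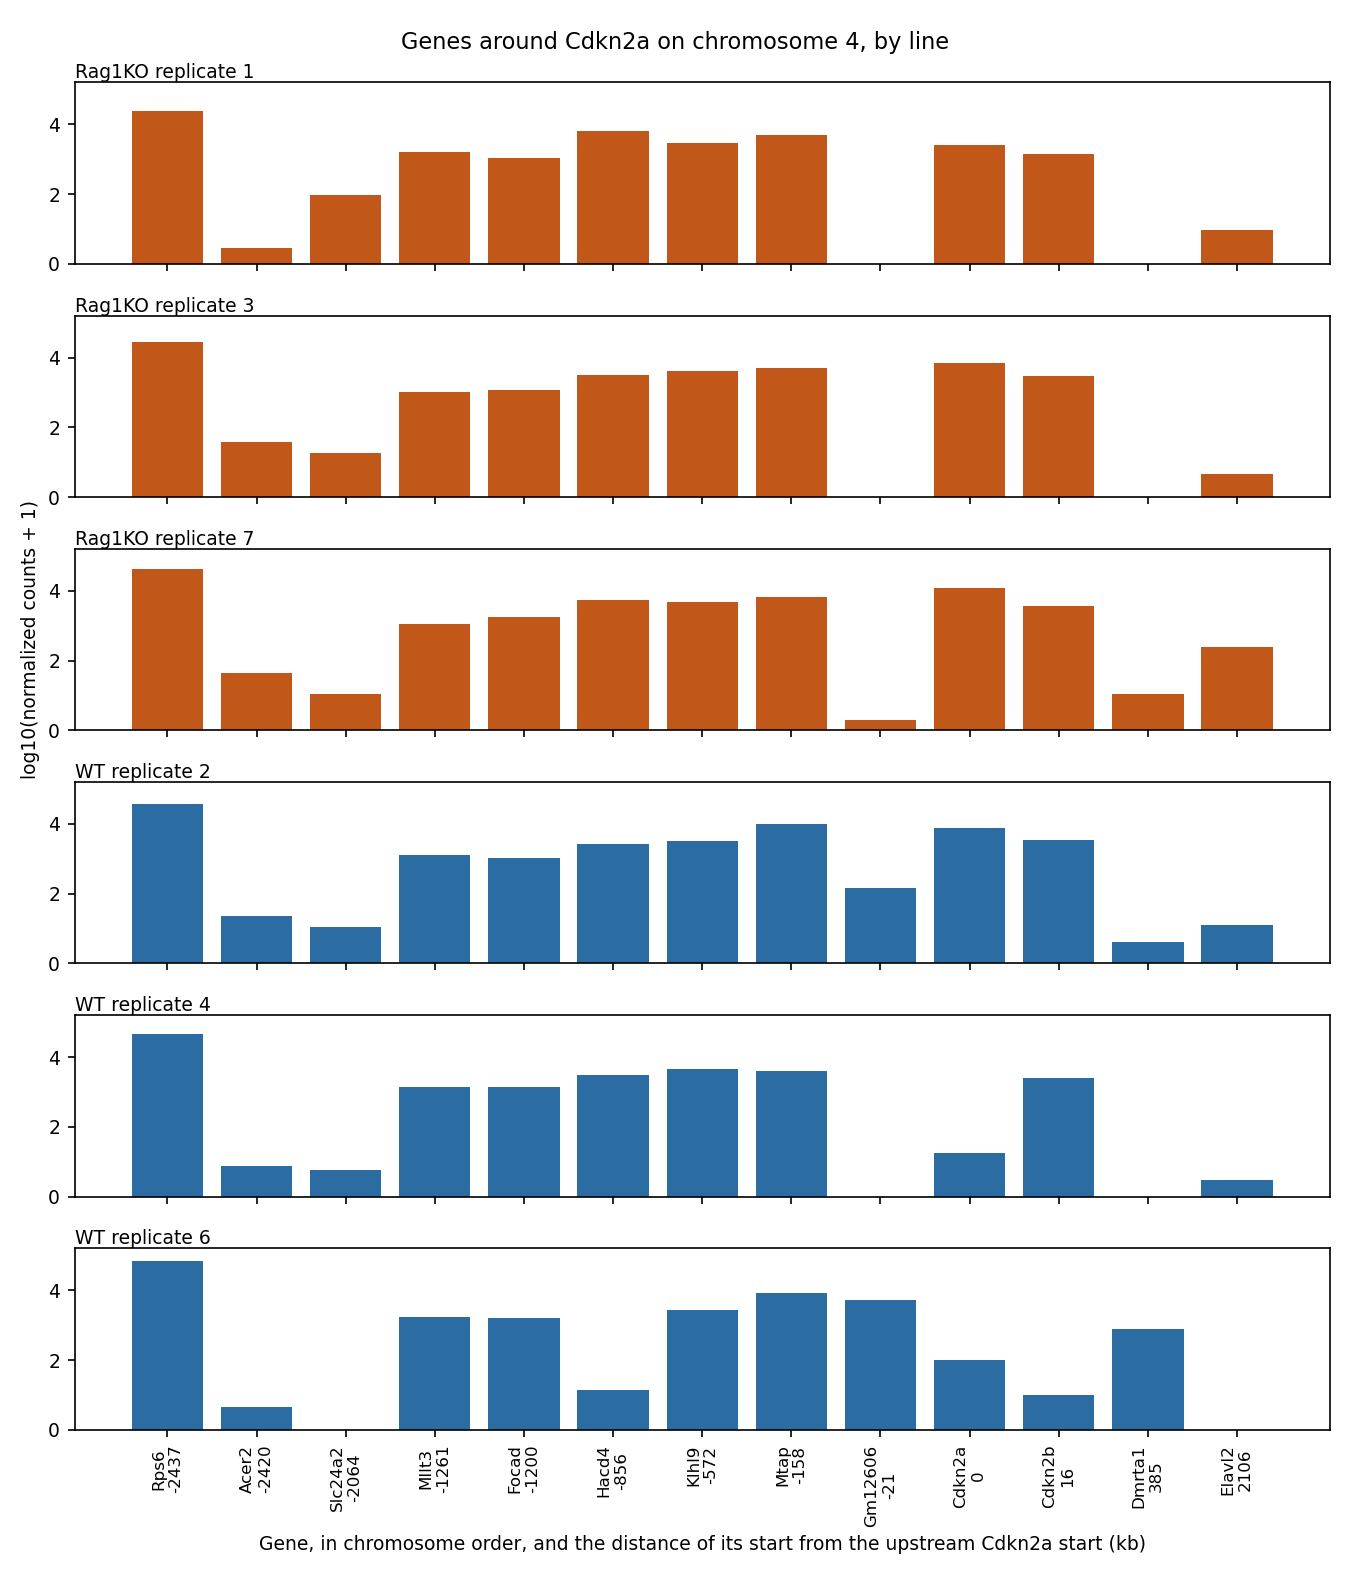
Level of the expressed protein-coding genes around Cdkn2a and of Gm12606, as log10(normalized counts + 1), 1 bar per gene and 1 panel per line, in chromosome order with the distance of each start from the upstream Cdkn2a start in kb; the interferon-like gene models are left out. WT replicate 4 has a short Cdkn2a bar beside tall bars for Cdkn2b and Mtap, and WT replicate 6 is low at Hacd4, Cdkn2a and Cdkn2b and high at Gm12606 and Dmrta1.

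The other INK4 genes were expressed in every line. Cdkn2c (ENSMUSG00000028551.14, chr4:109660876-109667189, minus strand), which encodes p18, had 1135, 479 and 1435 normalized counts in Rag1KO replicates 1, 3 and 7, against 509.6, 2142 and 2033 in WT replicates 2, 4 and 6. The lines highest for Cdkn2c were thus the same WT replicates 4 and 6 that were lowest for Cdkn2a. With the lines taken by their labels, the means were 1016 ± 489 in Rag1KO lines and 1561 ± 912 in WT lines (SD, n = 3 each), a difference of −0.50 (SE 0.70, 95% interval −2.22 to 1.21, limma adjusted p = 0.886) that was −0.18 without WT replicate 6. Cdkn2d (ENSMUSG00000096472.2, chr9:21288410-21291407, minus strand), which encodes p19Ink4d, had 1078, 558 and 836 in Rag1KO replicates 1, 3 and 7, against 706, 463 and 651 in WT replicates 2, 4 and 6. It varied least among the INK4 genes, and the lines overlapped. Its difference was 0.41 (SE 0.34, 95% interval −0.41 to 1.23, limma adjusted p = 0.850), and 0.48 without WT replicate 6.

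To set the INK4 genes against each other, normalized counts were divided by exon length. The sum of the 4 genes was 4273, 8556 and 13651 per kb in Rag1KO replicates 1, 3 and 7, against 9475, 2864 and 1260.1 per kb in WT replicates 2, 4 and 6. Cdkn2a supplied 51.0%, 68.6% and 73.2% of it in the Rag1KO lines, against 67.7%, 0.489% and 6.61% in the WT lines. The small share of Cdkn2a in WT replicates 4 and 6 follows from the choice of the genes by that level. The lower sums and the other leading genes in these lines follow from it in part. Which gene led differed between lines. Cdkn2b led in WT replicate 4 with 61.4% of the sum, and Cdkn2c in WT replicate 6 with 60.1%, while Cdkn2a led in the other 4 lines. Cdkn2d supplied 3.89% to 16.0% in the Rag1KO lines and 4.73% to 32.8% in the WT lines, the highest share being in WT replicate 6.

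**Figure D3:**
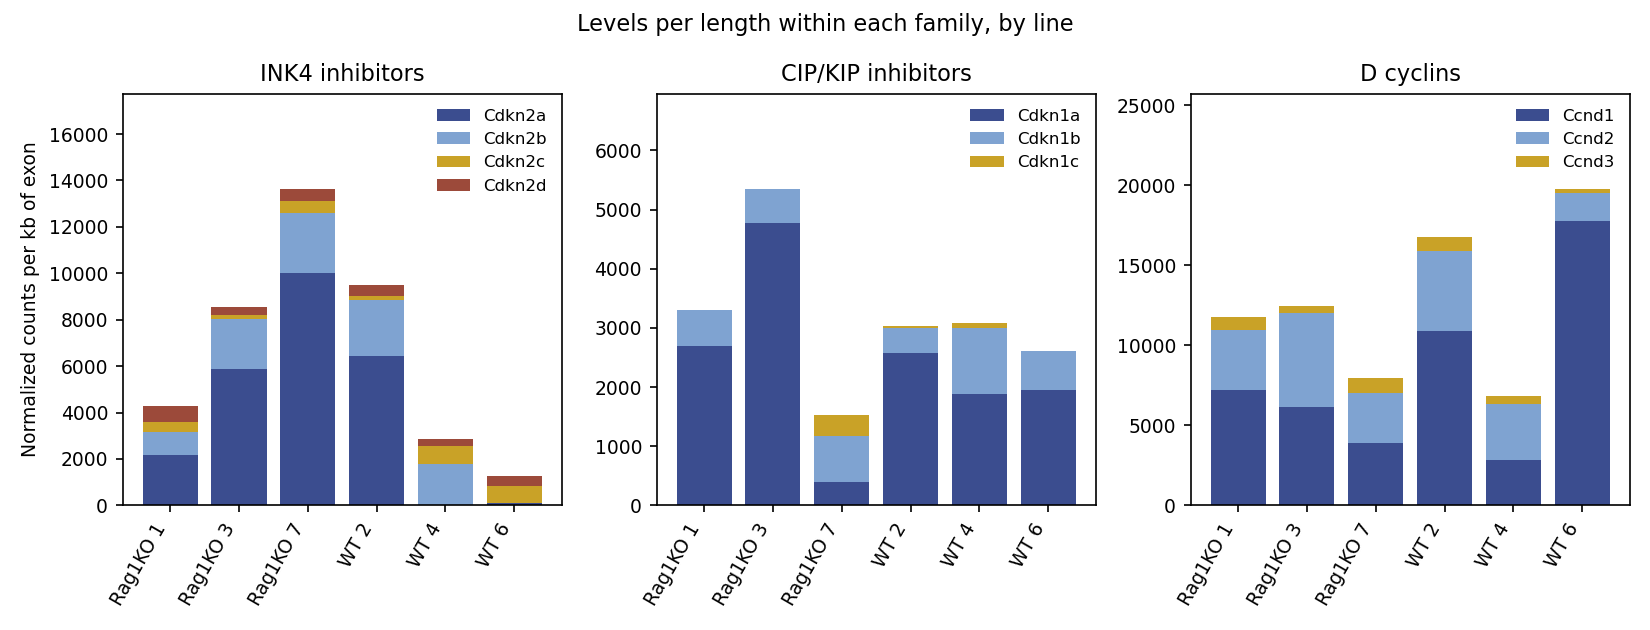
Normalized counts per kb of exon, stacked by gene, for the INK4 inhibitors, the CIP/KIP inhibitors and the D cyclins in each line. Cdkn2a makes up most of the INK4 bar in the 3 Rag1KO lines and WT replicate 2, the CIP/KIP bar of Rag1KO replicate 7 is the shortest, and Ccnd1 fills nearly all of the D cyclin bar in WT replicate 6.

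Cdkn1a (ENSMUSG00000023067.14, chr17:29090976-29100727, plus strand), which encodes p21, set apart a different line. It had 9594, 16931 and 1390.2 normalized counts in Rag1KO replicates 1, 3 and 7, against 9130.1, 6664 and 6919 in WT replicates 2, 4 and 6. Rag1KO replicate 7, the line with the most Cdkn2a, had the least Cdkn1a, and Rag1KO replicate 3 had 12.2-fold more. The WT lines lay close together, between the extremes of the Rag1KO lines. The means were 9305 ± 7774 in Rag1KO lines and 7571 ± 1356 in WT lines (SD, n = 3 each). Rag1KO minus WT was −0.30 on the log2 scale (SE 0.91, 95% interval −2.53 to 1.93, limma adjusted p = 0.954). It was 0.77 without Rag1KO replicate 7, 0.31 in edgeR and 0.31 in DESeq2, so its sign was not fixed, and it was −0.36 without WT replicate 6. Of the 50-base words of Cdkn1a, 8.49% were also found in transcripts of other genes, so a part of its reads is uncertain.

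The upstream Cdkn1a start region is shown because it holds a match to the p53 response element. Some other genes known as p53 targets were lowest in the same line as Cdkn1a, while others were not. The region is RefSeq's on GRCm38.p6, with the same layout as above, and capitals mark the match.
Cdkn1a upstream start, chr17:29090729-29091028, plus strand: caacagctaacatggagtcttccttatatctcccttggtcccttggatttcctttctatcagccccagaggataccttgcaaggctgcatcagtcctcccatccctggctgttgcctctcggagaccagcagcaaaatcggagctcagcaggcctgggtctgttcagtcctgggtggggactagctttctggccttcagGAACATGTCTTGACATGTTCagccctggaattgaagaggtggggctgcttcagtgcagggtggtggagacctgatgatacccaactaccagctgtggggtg
The match of 20 bases lies 31 bases before this start and differs from the published consensus at no more than 1 base, on a motif that is its own reverse complement. Such a match was present in 0.0883% of the promoter windows, 29 in all. The window of the downstream Cdkn1a start, chr17:29093519-29093818, held 0, and counts of the whole gene do not separate the starts. The match says nothing about binding of p53 in these lines.

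The p53 axis was read from a list of 23 genes downstream of Arf, 22 of them tested, Cdkn1a included. None passed limma's threshold in either direction, 3 had an unadjusted p under 0.05, and the median difference was −0.05, against −0.0003 over all tested genes. Rag1KO replicate 7 was the lowest line for 13 of the 22 and the highest for 3, Trp53, Fas and Plk2. Without that line 16 of the 22 were positive, with a median of 0.61. Mdm2, the ligase that Arf restrains and a p53 target itself, had 43665, 12086 and 2542 normalized counts in Rag1KO replicates 1, 3 and 7, against 13496, 7664 and 6979 in WT replicates 2, 4 and 6. Rag1KO replicate 1 was far above every other line for Mdm2, and Rag1KO replicate 7 was the lowest. Further members with the same low line, named after their values were seen, were Ccng1, Eda2r and Zmat3. Ccng1 had 3659 normalized counts in Rag1KO replicate 7, against 11519 to 18523 in WT lines. Eda2r had 171 in Rag1KO replicate 7, against 1471 to 2348 in WT lines, and Zmat3 had 1891 there, against 5055 to 6556 in WT lines. Trp53, which encodes p53, was not low there but highest, close to WT replicate 6. Its transcript had 7744, 5983 and 10683 normalized counts in Rag1KO lines, against 7272, 7152 and 10469.6 in WT lines. The RNA level does not show whether the protein is intact, and no sequence of Trp53 was read here.

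The 3 members of the list with an unadjusted p under 0.05 had groups that did not overlap, a separation that 12.1% of all tested genes showed. With 3 lines per group a low p and such a separation tend to go together, so they are not separate results. Gadd45a, a growth arrest and DNA damage gene, had 775, 1606 and 699 normalized counts in Rag1KO lines, against 2036, 4175 and 4335 in WT lines, a difference of −1.80 (SE 0.45, limma adjusted p = 0.850) that was −1.61 without WT replicate 6. Fas, a death receptor, had 401, 329 and 496 in Rag1KO lines, against 75.5, 261 and 47.5 in WT lines. Plk2, a kinase induced by stress, had 4365, 6731 and 7463 in Rag1KO lines, against 3942, 3923 and 1975 in WT lines. None of them passed the adjusted threshold, and 4.67% of all tested genes had an unadjusted p under 0.05. Over the whole list WT replicates 4 and 6, the lines with little Cdkn2a, had summed levels of 81788 and 82242 normalized counts, near the 90647 of WT replicate 2 and between the 46813 and 143537 of Rag1KO replicates 7 and 1.

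**Figure D4:**
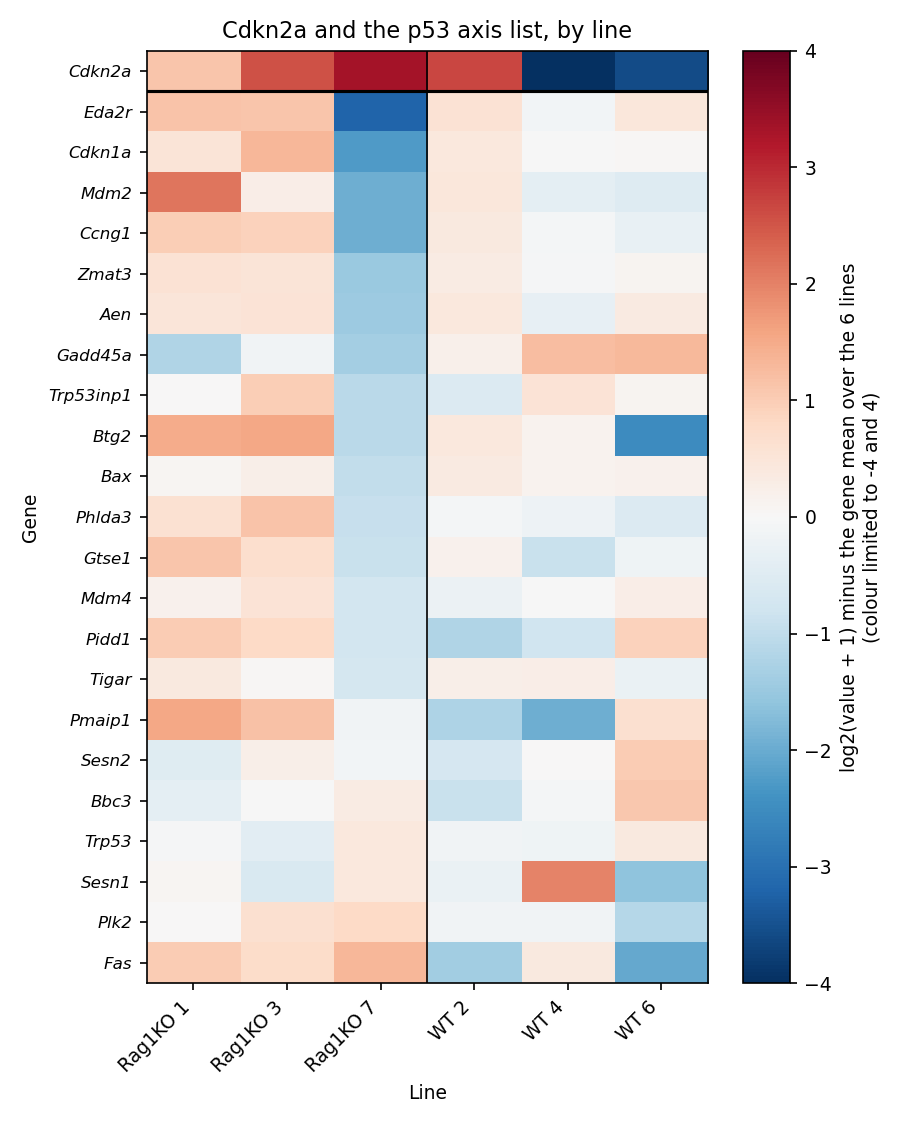
Cdkn2a (top row) and the 22 tested genes of the p53 axis list in each line, coloured by log2(normalized counts + 1) minus the gene's mean over the 6 lines, the colour being limited to −4 and 4. Rag1KO replicate 7 combines the highest Cdkn2a with the lowest value for 13 of the genes and the highest for 3. WT replicate 4, low for Cdkn2a, is lowest for 1 of the genes and highest for 1.

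Cdkn1b (ENSMUSG00000003031.14, chr6:134920401-134925513, plus strand), which encodes p27, had 2709, 2635 and 3589 normalized counts in Rag1KO replicates 1, 3 and 7, against 1928, 5108 and 3029 in WT replicates 2, 4 and 6. WT replicate 4 was the highest and WT replicate 2 the lowest, with the Rag1KO lines between them. The difference was −0.07 (SE 0.38, 95% interval −1.0003 to 0.85, limma adjusted p = 0.979), and −0.09 without WT replicate 6. Per kb of exon, the sum of Cdkn1a, Cdkn1b and the third CIP/KIP gene Cdkn1c was 3296, 5356 and 1528 in Rag1KO replicates 1, 3 and 7, against 3028, 3080.2 and 2613 in WT replicates 2, 4 and 6. Cdkn1a supplied 81.9%, 89.0% and 25.6% of it in the Rag1KO lines, against 84.9%, 60.9% and 74.5% in the WT lines. Rag1KO replicate 7 thus had more Cdkn1b than Cdkn1a per length, and it was also the line with the most Cdkn1c, which encodes p57, at 709 normalized counts, against 1.92 and 24.3 in Rag1KO replicates 1 and 3 and 71.5, 168 and 0.880 in the WT lines.

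Cdk4 (ENSMUSG00000006728.12, chr10:127063534-127067920, plus strand), the more abundant per length of the 2 kinases that partner D cyclins, had 27463, 21133 and 18653 normalized counts in Rag1KO replicates 1, 3 and 7, against 44011, 28453 and 22772 in WT replicates 2, 4 and 6. WT replicate 2 was the highest line, and WT replicate 6 lay within the range of the Rag1KO lines. The means were 22416 ± 4543 in Rag1KO lines and 31745 ± 10995 in WT lines (SD, n = 3 each). The difference was −0.47 (SE 0.31, 95% interval −1.21 to 0.28, limma adjusted p = 0.850), and −0.68 without WT replicate 6. Of the 9 tested genes Cdk4 had the lowest unadjusted p, 0.178 in limma. Tspan31 lies antisense to its 3′ end, with 5724 to 12574 reads over the lines, and 17.01% of the 50-base words of Cdk4 were also found in transcripts of other genes, mostly Tspan31. The library kit keeps strand, but whether the counting used it is not stated, so the Cdk4 values are uncertain by reads from that overlap.

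Cdk6 (ENSMUSG00000040274.11, chr5:3341485-3531008, plus strand), the kinase with overlapping function, had 3059, 936 and 1982 normalized counts in Rag1KO replicates 1, 3 and 7, against 2355, 1098 and 2878 in WT replicates 2, 4 and 6. Rag1KO replicate 3 and WT replicate 4 were the low lines, and the groups overlapped almost fully. The difference was −0.13 (SE 0.56, 95% interval −1.49 to 1.23, limma adjusted p = 0.972), and 0.15 without WT replicate 6. Per kb of exon, Cdk4 exceeded Cdk6 38.7-, 97.2- and 40.5-fold in Rag1KO replicates 1, 3 and 7, against 80.5-, 112- and 34.1-fold in WT replicates 2, 4 and 6. The summed level of the 4 INK4 genes per kb relative to that of Cdk4 and Cdk6 together was 0.493, 1.302 and 2.32 in the Rag1KO lines, against 0.691, 0.324 and 0.175 in the WT lines. WT replicate 6 had the lowest ratio and Rag1KO replicate 7 the highest. The sum takes in all Cdkn2a reads, and the part of them that came from p16 transcript is unknown. The low ratios of WT replicates 4 and 6 follow in part from the choice of the genes by the low Cdkn2a of these lines.

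Ccnd1 (ENSMUSG00000070348.5, chr7:144929931-144939925, minus strand), which encodes cyclin D1, had 33944, 29033 and 18261 normalized counts in Rag1KO replicates 1, 3 and 7, against 51294, 13265 and 83543 in WT replicates 2, 4 and 6. The WT lines held both the highest value, in replicate 6, and the lowest, in replicate 4, so the 2 lines with little Cdkn2a stood at opposite ends for Ccnd1. The means were 27079 ± 8022 in Rag1KO lines and 49367 ± 35179 in WT lines (SD, n = 3 each). The difference was −0.55 (SE 0.70, 95% interval −2.28 to 1.17, limma adjusted p = 0.876), and 0.01 without WT replicate 6. Oraov1 lies antisense to one end of Ccnd1, with 800 to 931 reads over the lines, which is little beside Ccnd1, although 21.6% of the 50-base words of Ccnd1 were shared with it. Per kb of exon, Ccnd1 made up 61.1%, 49.5% and 48.6% of the 3 D cyclins in Rag1KO lines, against 65.1%, 41.2% and 89.6% in WT lines. Ccnd2, the other abundant D cyclin, took 31.9%, 46.9% and 39.1% in Rag1KO lines, against 29.8%, 51.8% and 8.97% in WT lines. WT replicate 4 was the line with more Ccnd2 than Ccnd1 per length.

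**Figure D5:**
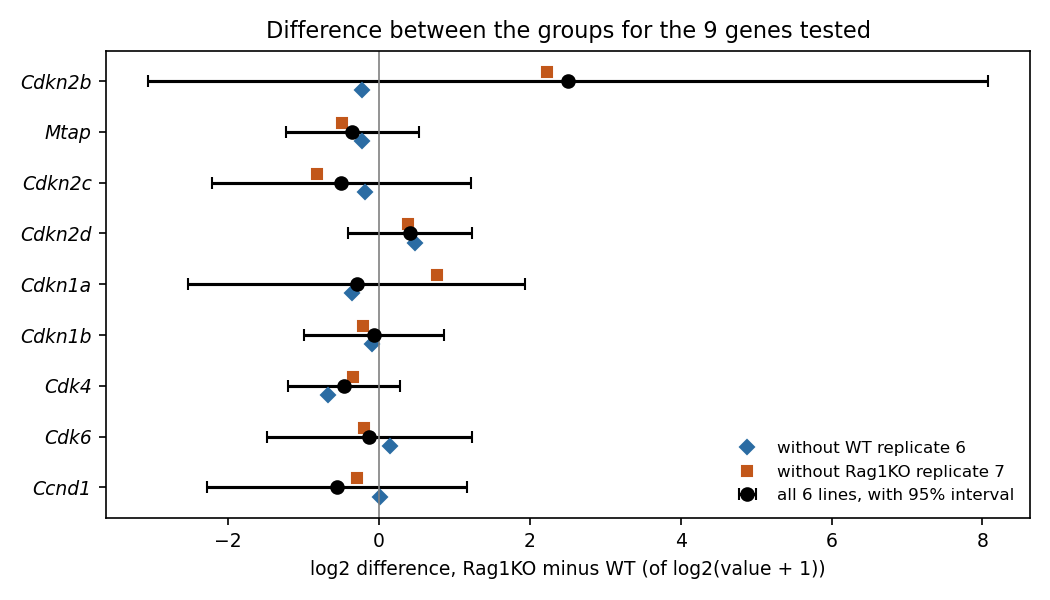
Difference between Rag1KO and WT lines, Rag1KO minus WT of log2(normalized counts + 1), for the 9 tested genes with limma's 95% interval (black), and the same without Rag1KO replicate 7 (orange) and without WT replicate 6 (blue). Every interval includes 0, and Cdkn2b is at −0.23 without WT replicate 6, against 2.51 with all lines.

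Over the 9 tested genes, the difference Rag1KO minus WT was positive for 2 and negative for 7, with a median of −0.30, against a median of −0.0003 and 49.98% positive over all tested genes. The adjusted p ran from 0.850 to 0.979 in limma, with the lowest at 0.897 in edgeR and 0.944 in DESeq2. What could have been missed differed by gene: the 95% interval that reached least far from 0 was that of Cdkn1b, to 2.0-fold, and the one that reached farthest was that of Cdkn2b, to 269-fold.

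The genes around and downstream of the inhibitors were read from further lists. In the list of G1 cyclins and kinases, 0 of 12 tested genes passed in either direction, 6 were positive, and the median was −0.05. Cdk2, the partner of cyclin E, had 4627, 1746 and 2277 normalized counts in Rag1KO lines, against 3409.9, 2189.9 and 2315 in WT lines. In the Rb and E2F list, 0 of 13 passed, 5 were positive, and the median was −0.32, or 0.04 without WT replicate 6. Rb1, which encodes the retinoblastoma protein itself, had 894, 847 and 489 in Rag1KO lines, against 801, 936 and 1431 in WT lines, so no line lacked it and Rag1KO replicate 7 was lowest. E2f8, a repressive E2F, had 1102, 283 and 794 in Rag1KO lines, against 1009, 771 and 8066 in WT lines, and stood out in WT replicate 6.

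Of the 30 E2F target genes tested, 0 passed the threshold, 13 were positive, and the median was −0.10. Rag1KO replicate 3 was the lowest line for 25 of the 30, while Rag1KO replicate 1 was highest for 15 and WT replicate 6 for 14. The count of positive genes was 28 without Rag1KO replicate 3 and 24 without WT replicate 6, so its direction rested on single lines. WT replicate 4, the line with the least Cdkn2a, was highest for none of the 30 and lowest for 3. Of 15 proliferation markers, 0 passed, 13 were positive and the median was 0.27, with Rag1KO replicate 1 the highest line for 11. Without Rag1KO replicate 1 there were 9 positive with a median of 0.07, without Rag1KO replicate 7 there were 9 with 0.06, and without WT replicate 4 there were 10 with 0.11. Without Rag1KO replicate 3 or without WT replicate 6 all 15 were positive, with medians of 0.57 and 0.42. Groups did not overlap for 3 of the 15, all with Rag1KO higher, as for 5.6% of all tested genes. An unadjusted p under 0.05 in limma was reached by 2 of the 15, and by 4.67% of all tested genes. Cdc20, an activator of the anaphase-promoting complex, had 3992, 3094 and 3637 normalized counts in Rag1KO lines, against 2247, 2412 and 2291 in WT lines, without overlap. Its difference of 0.62 (SE 0.17) had an unadjusted p of 0.0101 in limma and an adjusted p of 0.850, and it was 0.61 without WT replicate 6. Mki67, the usual marker of cycling cells, overlapped, with 11818, 4325 and 12207 in Rag1KO lines, against 8489, 6143 and 6824 in WT lines.

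Regulators of the locus were covered by a list of 27 genes, Polycomb proteins, T-box repressors and activators among them. None passed, 8 were positive, the median was −0.16, and WT replicate 6 was the highest line for 14. Groups did not overlap for 1 gene with Rag1KO higher and 3 with Rag1KO lower, where 5.6% and 6.49% of all tested genes were so separated. Bmi1, the Polycomb protein known for repressing Cdkn2a in mice, had 4866, 2919.9 and 3441 normalized counts in Rag1KO lines, against 4238, 5237 and 7669 in WT lines, and WT replicate 6 was the highest. Tbx3, another repressor of the locus, had 217, 195 and 439 in Rag1KO lines, against 781, 289.7 and 1807 in WT lines, again highest in WT replicate 6. Ezh2, the methyltransferase of Polycomb complex PRC2, had 2603, 1115 and 2195 in Rag1KO lines, against 1821, 2066 and 2381 in WT lines, and did not set WT replicates 4 and 6 apart. Id1, an inhibitor of helix-loop-helix activators of p16, had 2467, 2215 and 1435 in Rag1KO lines, against 1217, 506 and 409 in WT lines, a separation with a difference of 1.65 (SE 0.47, limma adjusted p = 0.850) that was 1.34 without WT replicate 6. Kdm6a, an X-linked demethylase of the Polycomb mark, had 1499, 945 and 1496 in Rag1KO lines, against 3189, 2425 and 1914 in WT lines (difference −0.93, SE 0.29, limma adjusted p = 0.850; −1.11 without WT replicate 6). The part of Xist expression in the Kdm6a values was not tested.

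Beside Mtap, the methionine salvage list held 11 further genes. None of the 12 passed, all 12 were negative with a median of −0.35, and WT replicate 6 was the highest line for 8. Without that line 4 of the 12 were positive and the median was −0.13. Sms, spermine synthase, had 2529.9, 1145 and 2412 normalized counts in Rag1KO lines, against 2619, 2378 and 5655 in WT lines. Prmt5, the arginine methyltransferase inhibited by the substrate of Mtap, had 3699, 3936 and 3888 in Rag1KO lines, against 4978, 3487 and 4542 in WT lines, and varied little. Of 13 tested senescence-associated secreted factors, 0 passed, 7 were positive and the median was 0.69, or −0.09 without WT replicate 6. The list summed to 62771 to 199366 normalized counts in Rag1KO lines and to 32970 to 84297 in WT lines, lowest in WT replicate 6. Mmp3, a matrix metalloproteinase, had 312, 2448 and 811 in Rag1KO lines, against 1718, 1274 and 11885 in WT lines, and was thus highest in the line that was lowest for the list as a whole.

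Over all 16 lists, which hold 198 genes, 177 were tested beside Cdkn2a. None was called by limma, edgeR or DESeq2. An unadjusted p under 0.05 in limma was reached by 9 of the 177, a share close to the 4.67% of all tested genes.

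Genes whose pattern over the 6 lines was most like that of Cdkn2a were ranked by the distance between log2 profiles, each centred on its own mean, over 16136 genes. The 5 nearest after predicted gene models were left out were AI606473 (distance 2.29), Stc1 (2.45), Slc38a1 (2.69), Lhx8 (2.81) and Nap1l2 (2.99), where a flat profile would lie at 8.70 and the median gene lay at 8.79. Slc38a1, a transporter of glutamine and other neutral amino acids, had 2011, 2118 and 1109 normalized counts in Rag1KO replicates 1, 3 and 7, against 1484, 13.5 and 24.6 in WT replicates 2, 4 and 6. Lhx8, a LIM homeobox transcription factor, had 339, 548 and 451 in Rag1KO lines, against 394, 0 and 0 in WT lines. AI606473 (chr3:154330821-154334254) and Lhx8 (chr3:154306294-154330659) are neighbours on chromosome 3, so they are not separate loci. Stc1 lies on chromosome 14, Slc38a1 on 15 and Nap1l2 on X. Low values in WT replicates 4 and 6 follow from the choice of these genes by that pattern. None of the other 9 genes of the set came near: Cdkn2d was the closest of them at 8.19 and rank 2533, Cdkn2b followed at 8.26 and rank 2877, and Cdkn2c was far down at 10.4 and rank 15344. These distances describe 6 libraries, and a gene at or near 0 in 2 of them has a profile of this shape whatever else it does.

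Markers of the tissue of origin and of other cells were read beside these results. The 11 fibroblast and mesenchymal markers summed to 1791359.6 to 3115842 normalized counts in Rag1KO lines and 1035565 to 2272309 in WT lines, lowest in WT replicate 6. Among 10 leukocyte and macrophage markers, Cd3e and Tyrobp were at 0 reads in every line and Adgre1 and Itgam had under 3, and the list summed to 319.7 to 1797 in Rag1KO lines and 143 to 739.6 in WT lines. The 7 epithelial markers summed to 13.6 to 49.8 in Rag1KO lines and 9.68 to 349 in WT lines, with Epcam at 0 reads throughout. The 5 endothelial markers summed to 212 to 1483 in Rag1KO lines and 27.3 to 1010.0 in WT lines. Smooth muscle and pericyte markers, 7 in number, summed to 69485 to 431691 in Rag1KO lines and 6841 to 144503 in WT lines, again lowest in WT replicate 6. The 6 melanocyte markers summed to 711 to 1770.5 in Rag1KO lines and 639 to 2254 in WT lines, with Dct at 0 reads. WT replicate 4, the line with the least Cdkn2a, had a summed fibroblast marker level within the range of the other lines. Its mean of log2(normalized counts + 1) over these markers was the highest, 15.83 against 11.80 to 14.95 in the others. WT replicate 6 was the lowest line by both measures. Taken gene by gene, it was lowest for 5 of the 11, and other lines were lowest for the rest. The part of these differences in the level of Cdkn2a was not tested.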

How the data were processed

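RNA was sequenced from 6 lines, 3 Rag1KO and 3 WT, with a TruSeq Stranded kit, per the labels' protocols. STAR 2.7.9a, Trim Galore 0.6.6, DESeq2 and FastQC are named with build mm10, per the submitters' processing notes, while the read counter, its strand setting and the annotation are not given in the sources used here. The deposited signal values were whole reads divided by 1 size factor per library: 100% of values came out whole within 0.01 reads, and the factors equalled median-of-ratios factors within a relative difference of 6.84e-12. IDs were matched to GENCODE M21, where 55141 of 55401 were found.

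The 16137 genes kept by filterByExpr were tested on log2(value + 1) with limma 3.58.1 (trended prior variance, two-sided, Benjamini-Hochberg adjustment). Because reads were recovered, edgeR 4.0.16 (quasi-likelihood, TMM) and DESeq2 1.42.0 were run on them as alternatives, calling 0 and 65 genes. Other alternatives were a pseudocount of 0.1, no filter, 1 CPM in 3 libraries, TMM and library-size scaling, and leaving out each line. limma was tested on simulated data. R 4.3.3 was used, with Python 3.11.15 and matplotlib 3.10.9 for figures. Replicates of a group differed far beyond sampling noise, with a chi-square per degree of freedom of 412 to 1293 over 13776 genes.

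The 10 genes and the lists were chosen with earlier results of these data known. Named genes are these 10, expressed protein-coding genes within 2.5 Mb of Cdkn2a, up to 4 of lowest p per list, a set of fixed genes and the 5 most like Cdkn2a. Others are said to have been chosen after their values were seen.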

Additional observations from a re-analysis of the deposited data

How the results depend on the processing

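No paired analysis was possible because the groups share no replicate number. None of the 9 tested genes and none of the listed genes passed the threshold in any of the 13 alternatives. Over all genes the count, 1 in limma, was 0 in edgeR and 65 in DESeq2, and leaving out 1 line gave 0 to 5, the 5 being without WT replicate 6. Of the values of the 9 tested genes under the alternatives, 107 kept their direction and side of the threshold, and 10 changed sign, none past the threshold. Cdkn2b was −0.23 without WT replicate 6, 3.99 at most, without WT replicate 2, and 0.46 in edgeR and in DESeq2. Cdkn1a was 0.31 in edgeR and in DESeq2, 0.77 without Rag1KO replicate 7 and −1.04 without Rag1KO replicate 3. Cdkn1b was 0.0080 without Rag1KO replicate 3, 0.29 without WT replicate 4 and −0.42 without WT replicate 2. Cdk6 was 0.33 without Rag1KO replicate 3, 0.0050 without WT replicate 2, 0.15 without WT replicate 6 and −0.54 without WT replicate 4. Ccnd1 was 0.0067 without WT replicate 6 and −1.32 without WT replicate 4. Beyond the lines left out, the cause was not tested. The difference of Cdkn2a, with no test, ran from 2.78 without WT replicate 4 to 7.16 without WT replicate 2, and was 1.48 in edgeR and in DESeq2, which compare mean reads. Scaling moved the median of all genes by at most 0.05 on the log2 scale. Depth limits Cdkn2a in WT replicates 4 and 6 and Cdkn2b in WT replicate 6, which rest on 17, 111 and 10 reads, Hacd4 in WT replicate 6, which rests on 15, and the low values of Slc24a2, Acer2 and Cdkn1c.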
